A study of Mus musculus with 18 samples.

Results

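The genes described here are 10 matrix proteases and protease inhibitors, of 24376 genes in the deposited count table: the matrix metalloproteinases Mmp2, Mmp11, Mmp14 and Mmp15, the ADAMTS proteases Adamts1 and Adamts18, the membrane-bound ADAM protease Adam12, and the tissue inhibitors of metalloproteinases Timp1, Timp2 and Timp3. They were taken by name from the table, and all 10 were found and passed the filter on low counts. The study sequenced RNA from mammary bud epithelium of mouse embryos in which β-catenin, which carries canonical Wnt signals to the nucleus, was stabilized or left as it was, and by its title it asks what Wnt/β-catenin signalling does in the embryonic gland. Of its 18 libraries, 4 control and 4 stabilized ones came from bud-stage embryos (E13.5, in days of gestation) and 5 of each from the sprouting stage (E16.5). Library totals ran from 26768810 to 36922108 counts.

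Stabilized embryos were Krt14Cre/wt and Ctnn1bflox3/wt, so that Cre, driven by the keratin 14 promoter, removes exon 3 of the β-catenin gene from 1 allele in epithelial cells while the other allele stays wild type. Controls were Krt14wt/wt littermates that carried the same Ctnn1bflox3/wt allele without Cre, so an effect of Cre itself cannot be told apart from that of stabilized β-catenin. All embryos had a mixed C57Bl/6 and NMRI background. Each library held the dissected epithelium of mammary buds 1 to 3 from a pool of 2 to 3 embryos of the same litter and genotype. At E13.5 embryos of both sexes were used and at E16.5 females only, so stage and sex makeup cannot be told apart. Which litter a library came from is not stated, and the p-values measure the spread between these pools.

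The extracellular matrix around an epithelial bud is cut by secreted and membrane-bound zinc proteases and protected by their inhibitors. Mmp14 sits on the cell surface and, with Timp2 as a bridge, activates the secreted gelatinase Mmp2. Timp1, Timp2 and Timp3 block metalloproteinases, and Timp3, which is held in the matrix, also blocks ADAM and ADAMTS proteases. In the mammary gland, Mmp2 and Mmp14 are known for their part in the outgrowth and branching of the ducts.

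The members lie on 7 chromosomes of GRCm38/mm10, as annotated in GENCODE release M21, and all are protein coding. Mmp2 (ENSMUSG00000031740), Mmp15 (ENSMUSG00000031790) and Adamts18 (ENSMUSG00000053399) lie on chromosome 8, at 92827291 to 92853420, 95352268 to 95375080 and 113697126 to 113848738. Chromosome 10 holds Mmp11 (ENSMUSG00000000901, 75923222 to 75936496) and Timp3 (ENSMUSG00000020044, 86300372 to 86349506). Mmp14 (ENSMUSG00000000957) is on chromosome 14 at 54431612 to 54445364 and Adamts1 (ENSMUSG00000022893) on chromosome 16 at 85793827 to 85803113. Timp1 (ENSMUSG00000001131) is on chromosome X at 20870166 to 20874735, Timp2 (ENSMUSG00000017466) on chromosome 11 at 118301069 to 118355740, and Adam12 (ENSMUSG00000054555) on chromosome 7 at 133883199 to 134232146. Exons of Mmp11 and Timp3 overlap exons of a gene on the opposite strand, Chchd10 (155 bases) and Syn3 (1733 bases), and reads in these stretches have no certain owner, because the sources used here do not give the strand setting of the counting.

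RefSeq (GRCm38.p6) gave a promoter for 8 of the 10 members, with no entry for Mmp2 and Adam12. Printed here are the 250 bases before the RefSeq start of the 3 members that moved with genotype at either stage and whose window lay wholly outside the annotated gene, written 5′ to 3′ on the gene's strand. Mmp14 and Adamts18 fell together at E16.5, and Adamts1 rose at E13.5. Capitals mark the GC box letters GGGCGG on either strand and, on the gene's strand, TATAAA.
Mmp14 (chr14:54431348-54431597, plus strand): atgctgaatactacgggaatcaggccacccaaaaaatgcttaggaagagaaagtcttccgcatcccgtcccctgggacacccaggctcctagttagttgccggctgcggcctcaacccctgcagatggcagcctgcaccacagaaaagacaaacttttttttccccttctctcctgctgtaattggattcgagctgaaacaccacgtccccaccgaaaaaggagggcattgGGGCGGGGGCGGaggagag
Adamts1 (chr16:85803114-85803363, minus strand): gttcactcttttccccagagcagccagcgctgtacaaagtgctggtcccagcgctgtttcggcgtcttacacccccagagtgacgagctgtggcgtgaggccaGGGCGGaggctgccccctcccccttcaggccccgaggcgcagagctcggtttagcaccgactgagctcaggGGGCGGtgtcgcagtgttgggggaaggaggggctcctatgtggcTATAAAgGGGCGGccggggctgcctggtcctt
Adamts18 (chr8:113848840-113849089, minus strand): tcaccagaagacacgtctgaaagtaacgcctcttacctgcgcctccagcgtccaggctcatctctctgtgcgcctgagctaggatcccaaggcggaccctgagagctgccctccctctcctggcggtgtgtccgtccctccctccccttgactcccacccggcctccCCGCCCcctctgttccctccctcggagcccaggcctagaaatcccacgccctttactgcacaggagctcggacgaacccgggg
A GC box stood in the windows of all 8 members and in 32.7% of 32851 RefSeq windows of the same length. The TATAAA letters stood in the Adamts1 window, 32 bases before the start, in 0 of the other 7 members' windows and in 7.59% of all windows. The TCF/LEF letters CTTTGAT or CTTTGAA, searched on both strands, were in 0 of the 8 windows and in 7.48% of all windows, and the AP-1 letters TGANTCA in 0 of 8 and 6.75%. This says only that these letters are not in these 250 bases.

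Levels are given as CPM, read counts scaled to a common library size after TMM normalization, as mean ± SD over libraries. Changes are log2 fold changes ± SE from an edgeR quasi-likelihood model over all 18 libraries, and a gene rose or fell where the Benjamini-Hochberg adjusted p over 17269 tested genes was under 0.05. The tissue label was checked with 10 epithelial markers, and each of them had counts in every library. Epithelial marker sums ran from 2739 to 4275 CPM in the E13.5 and E16.5 control and E13.5 stabilized libraries and from 6373 to 12951 CPM in the E16.5 stabilized libraries, where Krt17 made 33.3% and Krt5 30.1% of the sum. In the same list the luminal keratin genes Krt8 (245 ± 41.6 to 51.3 ± 28.3 CPM) and Krt18 (200.1 ± 45.7 to 55.0 ± 21.98 CPM) and the adhesion gene Epcam (415 ± 10.5 to 212 ± 27.8 CPM) fell at E16.5, so that 6 of the 10 epithelial markers rose and 3 fell. At E13.5, 3 of the 10 epithelial markers rose and 2 fell. Krt14, the gene whose promoter drives Cre, was among the latter: stabilized buds had 349 ± 62.9 CPM and controls 813 ± 104 CPM. These groups did not overlap, and the Krt14 call had an edgeR adjusted p of 0.00169. At E16.5 the Krt14 difference did not pass (edgeR adjusted p = 0.189). Sums of 10 endothelial markers stayed between 5.53 and 19.9 CPM, and those of 10 muscle markers between 1.94 and 33.2 CPM. Ctnnb1, the targeted gene, had 2683 ± 333 CPM in E13.5 controls, 3260 ± 347 CPM in E13.5 stabilized, 1248 ± 111 CPM in E16.5 controls and 2278 ± 564 CPM in E16.5 stabilized libraries. Gene counts do not show the loss of exon 3.

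E13.5 control library 3 stood apart: it had the highest sum of 16 mesenchyme markers of its group, 861 CPM against 260 to 466 CPM in the other 3, and the highest share of mitochondrial counts, 4.18% against 2.18% to 2.50%. E16.5 stabilized library 1 had the highest epithelial marker sum, 12951 CPM, against 6373 to 7903 CPM in the other 4. Member counts were therefore also made without these 2 libraries, a choice made after seeing the data. In bulk samples such as these, fewer cells of a type and less RNA per cell cannot be told apart.

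Levels per kilobase of exon set genes of unequal length on 1 scale. On it Mmp2 led the members at E13.5 in both genotypes, Mmp14 in E16.5 controls and Timp3 in E16.5 stabilized epithelium. The length used was that of all annotated exons merged, the same in every library, so the order of genes may depend on it. In E13.5 controls Mmp2 had 74.3 ± 7.69 CPM per kb, above Mmp14 at 30.9 ± 7.50, Mmp11 at 29.0 ± 4.00, Timp2 at 19.1 ± 3.52 and Mmp15 at 10.8 ± 4.18 CPM per kb. Mmp14 and Mmp11 did not differ beyond their spread there, nor did Adamts18 (4.30 ± 0.859 CPM per kb) and Timp3 (3.57 ± 1.46 CPM per kb). In E13.5 stabilized buds Mmp2 still came first with 34.6 ± 3.10 CPM per kb, followed by Mmp14 with 26.4 ± 1.59 CPM per kb. Mmp11, Timp2 and Timp3 came next at 12.7 ± 1.53, 12.2 ± 1.51 and 11.5 ± 5.67 CPM per kb, and their spreads overlapped.

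By E16.5 the order per length was another in each genotype. Mmp14 led the controls with 55.0 ± 6.62 CPM per kb, Adamts18 came second with 27.7 ± 1.66, and Timp2 (16.4 ± 1.98) and Timp3 (15.3 ± 2.77 CPM per kb) followed within their spread of each other. Mmp2, first at E13.5, was sixth with 7.36 ± 3.05 CPM per kb, within the spread of Mmp15 (7.54 ± 1.68) and Adamts1 (6.51 ± 2.11 CPM per kb). In E16.5 stabilized epithelium Timp3 led with 57.3 ± 7.73 CPM per kb, ahead of Mmp14 (23.8 ± 4.58) and Timp2 (19.0 ± 4.19 CPM per kb). The spreads of Mmp14 and Timp2 overlapped, but Mmp14 lay above Timp2 in each library (ratio 1.03 to 1.49). Adamts18 was eighth there with 5.70 ± 2.59 CPM per kb. Timp1 and Adam12 were among the 3 lowest members in every group, at no more than 2.08 ± 1.50 and 0.518 ± 0.106 CPM per kb.

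**Figure D1:**
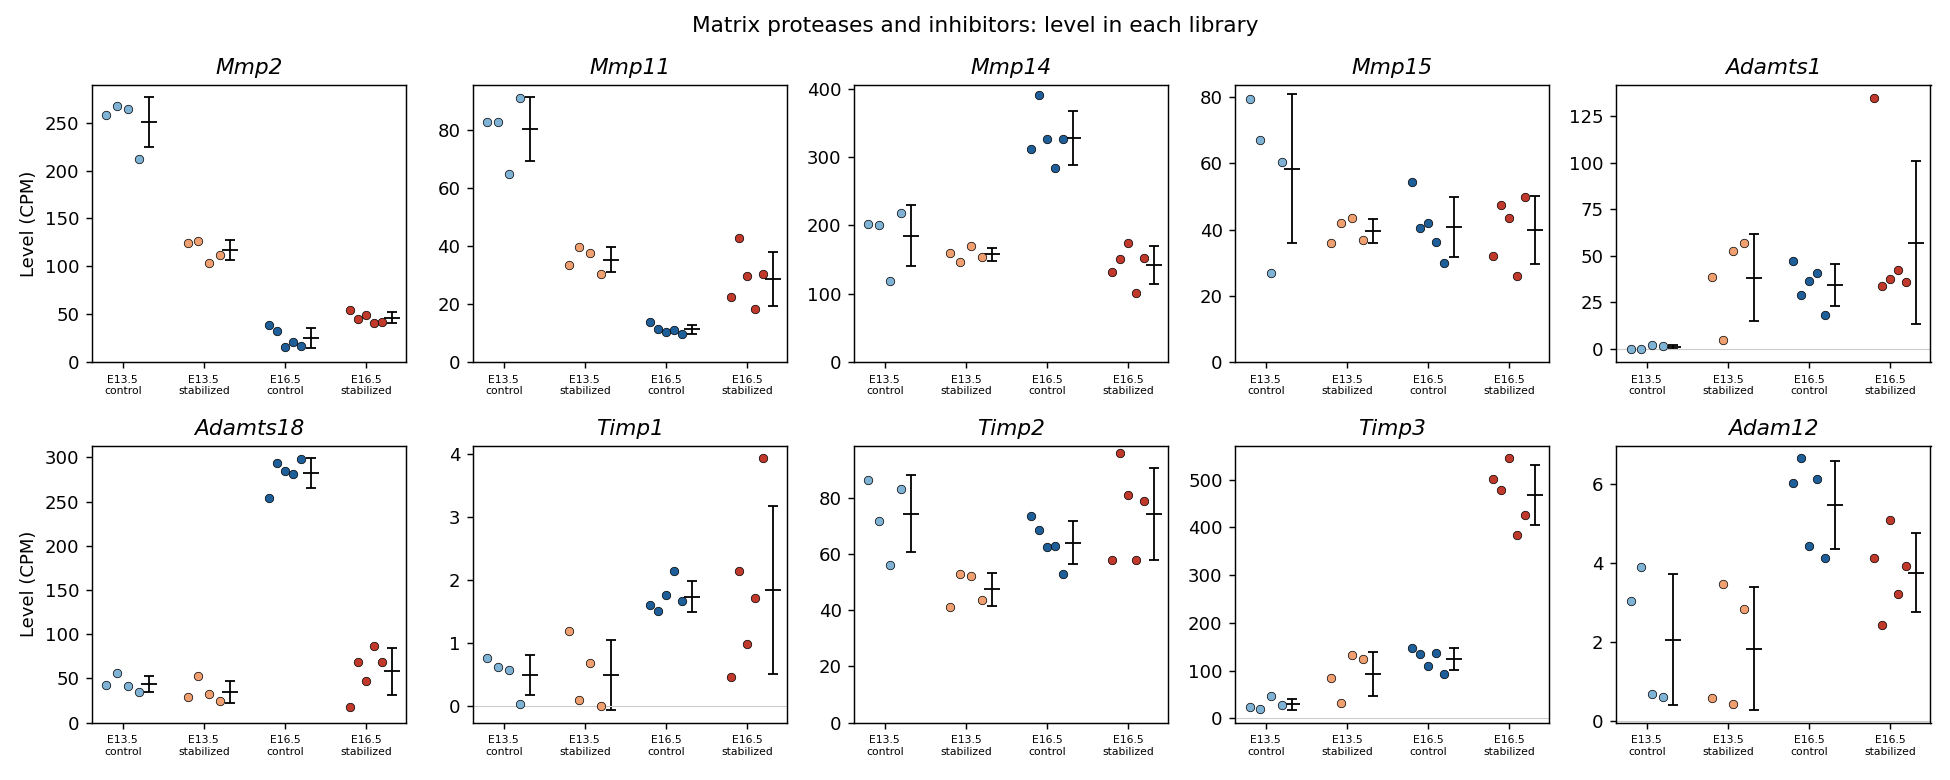
Level of each of the 10 members in every library (vertical axis, CPM, a separate linear scale per gene), with 1 point per library by group and, beside the points, the group mean with a bar of ± 1 SD. Mmp2 is highest in the 4 E13.5 controls (212 to 267 CPM), Adamts18 in the 5 E16.5 controls (254 to 298 CPM) and Timp3 in the 5 E16.5 stabilized libraries (384 to 544 CPM).

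At E13.5, proteases and inhibitors were compared between the genotypes to ask what stabilized β-catenin changes in the bud. The secreted proteases Mmp2 and Mmp11 and the inhibitor Timp2 fell in stabilized buds, by 2.15-, 2.28- and 1.56-fold. The matrix-bound inhibitor Timp3 rose 3.21-fold, and the proteoglycan-cutting protease Adamts1 rose from near absence. Of the 10 members, 2 rose and 3 fell at this stage, where 14.9% of all tested genes were called (9.58% up and 5.29% down). The members' median log2 fold change was -0.29, and that of all tested genes 0.01. Without the 2 libraries named above, 2 rose and 4 fell.

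Mmp2 encodes a gelatinase that cuts denatured collagen and basement membrane collagen. It had 258, 267, 265 and 212 CPM in control libraries 1 to 4 and 124, 126, 104 and 112 CPM in stabilized libraries 1 to 4. Every control lay above every stabilized library, and Mmp2 fell by 1.10 ± 0.222 on the log2 scale (adjusted p = 0.00156 by edgeR). In control library 2 the mesenchyme markers Prrx1 and Twist1 had 0 and 0.952 CPM, Col1a1 3.33 CPM and Mmp2 267 CPM. In control library 3 these markers had 23.8, 53.5 and 60.9 CPM and Mmp2 265 CPM. Other mesenchyme markers did otherwise: Fbn1 had 122 ± 19.9 CPM in E13.5 controls, and Thy1, like Mmp2, was lower in stabilized buds. The part of mesenchymal RNA in the Mmp2 level was not tested.

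Mmp11 encodes stromelysin-3, a secreted protease that furin-like enzymes activate inside the cell. Control libraries 1 to 4 had 82.9, 82.7, 64.9 and 91.3 CPM and stabilized libraries 33.3, 39.8, 37.7 and 30.4 CPM. The groups did not overlap, and Mmp11 fell by 1.19 ± 0.206 on the log2 scale (adjusted p = 0.000375 by edgeR). Chchd10, whose exons it overlaps, had 6.84 ± 3.67 CPM in controls and 4.16 ± 2.11 CPM in stabilized buds.

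Mmp14, the membrane-type protease that activates Mmp2, had 201, 200.2, 118 and 217 CPM in controls and 159.9, 147, 169 and 154 CPM in stabilized buds. The low control was library 3, and the stabilized values lay between it and the other 3 controls. The difference of -0.23 ± 0.173 did not pass (edgeR adjusted p = 0.468). Mmp15, a second membrane-type protease, ran from 26.7 to 79.5 CPM in controls, with library 3 again lowest, and from 35.8 to 43.4 CPM in stabilized buds. Its difference of -0.56 ± 0.264 did not pass (edgeR adjusted p = 0.180), but without control library 3 Mmp15 fell by 0.80 (edgeR adjusted p = 0.0121).

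Adamts1, which cuts versican and aggrecan, had 0, 0.0297, 2.14 and 1.36 CPM in control libraries 1 to 4, from 0 to 64 counts. Stabilized libraries had 38.5, 5.04, 52.4 and 56.7 CPM. All 4 lay above all controls, with library 2 far below the other 3, and Adamts1 rose by 5.46 ± 1.04 on the log2 scale (adjusted p = 0.00183 by edgeR), and by 6.40 without control library 3. In a fit of the E13.5 libraries alone, Adamts1 had a log2 fold change of 5.44 and an edgeR adjusted p of 0.0565, above the threshold. Adamts18, a secreted protease known to act on the basement membrane of the adult gland, had 43.8 ± 8.74 CPM in controls and 34.4 ± 12.3 CPM in stabilized buds, in overlapping groups (log2 fold change -0.35 ± 0.330, edgeR adjusted p = 0.589).

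Timp3 had 22.6, 19.2, 46.0 and 28.7 CPM in controls and 84.8, 31.8, 133 and 124 CPM in stabilized buds. The groups overlapped, since stabilized library 2 lay below control library 3. Timp3 rose by 1.68 ± 0.344 on the log2 scale (adjusted p = 0.00242 by edgeR). The call was lost in a fit of the E13.5 libraries alone (1.67, edgeR adjusted p = 0.0504) and with the gene-and-library factors of the deposited normalized table as offsets (1.25, edgeR adjusted p = 0.108). Syn3, whose exons overlap those of Timp3, had 12.3 ± 6.17 CPM in controls and 13.54 ± 4.94 CPM in stabilized buds.

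Timp2, the inhibitor that also serves Mmp14 in activating Mmp2, had 86.1, 71.8, 55.9 and 83.3 CPM in controls and 41.3, 53.0, 52.0 and 43.7 CPM in stabilized buds. The highest stabilized library lay just below the lowest control, and Timp2 fell by 0.64 ± 0.171 on the log2 scale (adjusted p = 0.0136 by edgeR). This call rested on the scaling and on 1 library: the change was -0.11 with the offsets of the deposited normalized table (edgeR adjusted p = 0.849) and -0.58 without stabilized library 1 (edgeR adjusted p = 0.0506). The factor by which that table divides Timp2 counts, relative to the library's median and the gene's mean, averaged 0.786 in stabilized buds (0.397 to 1.10) and 1.04 in controls. Timp1, with 1 to 26 counts in controls and 0 to 35 in stabilized buds, and Adam12, with 19 to 131 and 13 to 105 counts, had differences of -0.01 ± 1.03 and -0.17 ± 0.638 and did not pass (edgeR adjusted p = 1.00 and 0.934).

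At E13.5 the groups of 4 of the 10 members did not overlap, and neither did those of 2855 of the 17269 tested genes. The mesenchyme marker sum was 260 to 861 CPM in controls and 677 to 885 CPM in stabilized buds, where Postn alone made 62.2% of it. Of 15 tested mesenchyme markers, Postn rose (from 88.0 ± 50.2 to 488 ± 132 CPM) and Thy1 fell (from 34.1 ± 5.50 to 17.8 ± 4.23 CPM). The sum of 10 neural and Schwann cell markers was 149.9 to 205 CPM in controls and 333 to 373 CPM in stabilized buds, with no overlap, and the neuronal tubulin gene Tubb3, which rose from 8.32 ± 2.14 to 183 ± 33.3 CPM, made 51.9% of the latter. The part of mesenchymal and neural RNA in the members' changes was not tested.

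The genotypes were then compared in the sprouting epithelium of E16.5. Mmp2 and Mmp11, lower in stabilized buds at E13.5, were now higher in stabilized epithelium, by 1.85- and 2.55-fold. Timp3 rose again, 3.75-fold. Mmp14 and Adamts18, the members that led the E16.5 controls, fell by 2.31- and 4.86-fold. In all, 3 members rose and 2 fell, where 41.7% of all tested genes were called (22.2% up and 19.4% down). The members' median log2 fold change was 0.15 and that of all tested genes 0.10, and without the 2 libraries named above the counts were again 3 and 2.

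Mmp14 had 312, 391, 326, 283 and 326 CPM in control libraries 1 to 5 and 131, 151, 174, 101 and 152 CPM in stabilized libraries 1 to 5. The highest stabilized library was far below the lowest control, and Mmp14 fell by 1.21 ± 0.157 on the log2 scale (adjusted p = 3.88e-06 by edgeR). Mmp2 had 38.5, 32.7, 15.2, 20.6 and 17.0 CPM in controls, with libraries 1 and 2 above the other 3. Stabilized libraries had 54.3, 44.4, 49.5, 40.2 and 41.7 CPM, all above the highest control. Mmp2 rose by 0.89 ± 0.199 on the log2 scale (adjusted p = 0.00123 by edgeR).

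Mmp11 had 13.7, 11.5, 10.4, 10.9 and 9.75 CPM in controls and 22.3, 42.9, 29.6, 18.2 and 30.3 CPM in stabilized epithelium. The controls were tightly grouped and the stabilized libraries, all higher, spread more widely. Mmp11 rose by 1.35 ± 0.186 on the log2 scale (adjusted p = 8.02e-06 by edgeR), while the offsets of the deposited normalized table gave 1.02 (edgeR adjusted p = 0.0616). Chchd10 had 24.8 ± 6.69 CPM in controls and 6.10 ± 1.22 CPM in stabilized epithelium. The part of shared reads in the Mmp11 change was not tested. Mmp15 had 40.7 ± 9.08 CPM in controls and 39.8 ± 10.3 CPM in stabilized epithelium, and its difference of -0.03 ± 0.236 did not pass (edgeR adjusted p = 0.929).

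Adamts18 had 254, 293, 285, 282 and 298 CPM in controls and 18.3, 68.7, 47.2, 87.2 and 68.8 CPM in stabilized epithelium. The controls lay close together and the stabilized libraries were spread, with library 1 lowest, and the highest stabilized value was far below the lowest control. Adamts18 fell by 2.28 ± 0.308 on the log2 scale (adjusted p = 1.25e-05 by edgeR). Adamts1 had 47.5, 29.0, 36.8, 40.8 and 18.4 CPM in controls and 135, 34.1, 37.3, 42.3 and 36.2 CPM in stabilized epithelium. Apart from stabilized library 1, which had the highest Adamts1 of all 18 libraries and the lowest Adamts18 of its group, the values overlapped. The difference of 0.72 ± 0.742 did not pass (edgeR adjusted p = 0.471), and without that library it was 0.12.

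Timp3 had 148, 135, 109, 137 and 93.4 CPM in controls and 502, 477, 544, 384 and 426 CPM in stabilized epithelium. The lowest stabilized library lay far above the highest control, and Timp3 rose by 1.91 ± 0.308 on the log2 scale (adjusted p = 8.45e-05 by edgeR). Syn3 had 4.85 ± 1.87 CPM in controls and 8.64 ± 7.30 CPM in stabilized epithelium. Timp2 had 64.0 ± 7.70 and 74.2 ± 16.3 CPM, and its difference of 0.21 ± 0.153 did not pass (edgeR adjusted p = 0.287).

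Timp1 had 1.74 ± 0.242 and 1.85 ± 1.34 CPM at E16.5, from 12 to 116 counts, with no call (0.09 ± 0.908, edgeR adjusted p = 0.951). Adam12, which cuts growth factor precursors such as Hbegf at the cell surface, had 5.48 ± 1.12 and 3.76 ± 1.01 CPM and did not pass either (-0.54 ± 0.567, edgeR adjusted p = 0.477). The groups of 5 of the 10 members did not overlap, against 36.3% of tested genes.

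Markers of other cell types also differed between the genotypes at E16.5. The mesenchyme sum was 268 to 634 CPM in controls and 638 to 970 CPM in stabilized epithelium, where Dcn made 38.1% of it. Dcn, Postn and Thy1 rose among 15 tested mesenchyme markers, while the fibroblast receptors Pdgfra (48.1 ± 9.64 to 16.9 ± 8.37 CPM) and Pdgfrb (17.5 ± 2.82 to 6.87 ± 3.37 CPM) fell. The sum of 10 neural and Schwann cell markers was 881 to 1000.5 CPM in controls and 243 to 389 CPM in stabilized epithelium, with Sox10 at 58.7% and Erbb3 at 38.1% of the control sum, both of which mammary epithelium can also express. The genes of this list did not move as 1: 3 rose, 2 fell and 5 did not pass. Immune marker sums were 19.7 to 29.7 CPM in controls and 5.60 to 11.8 CPM in stabilized epithelium, but of these 10 markers 0 rose and 0 fell by the threshold. Mitochondrial counts made 2.21% to 3.88% of the E16.5 control libraries and 2.62% to 5.36% of the stabilized ones, with libraries 2 and 5 highest at 5.32% and 5.36%. The part of other cells and of RNA quality in the members' changes was not tested.

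**Figure D2:**
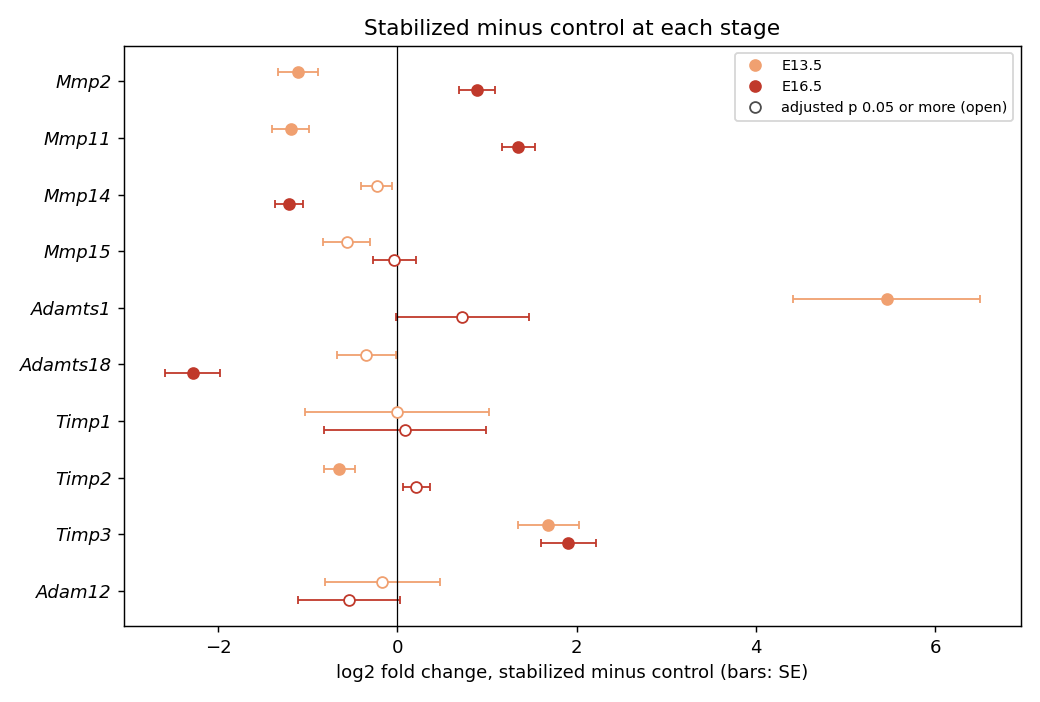
Log2 fold change of stabilized minus control (horizontal axis) for each member at E13.5 and E16.5, with bars of ± 1 SE; filled points passed an adjusted p of 0.05 and open points did not. Mmp2 and Mmp11 lie left of 0 at E13.5 and right of it at E16.5, and Timp3 lies right of 0 at both stages (1.68 and 1.91).

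**Figure D3:**
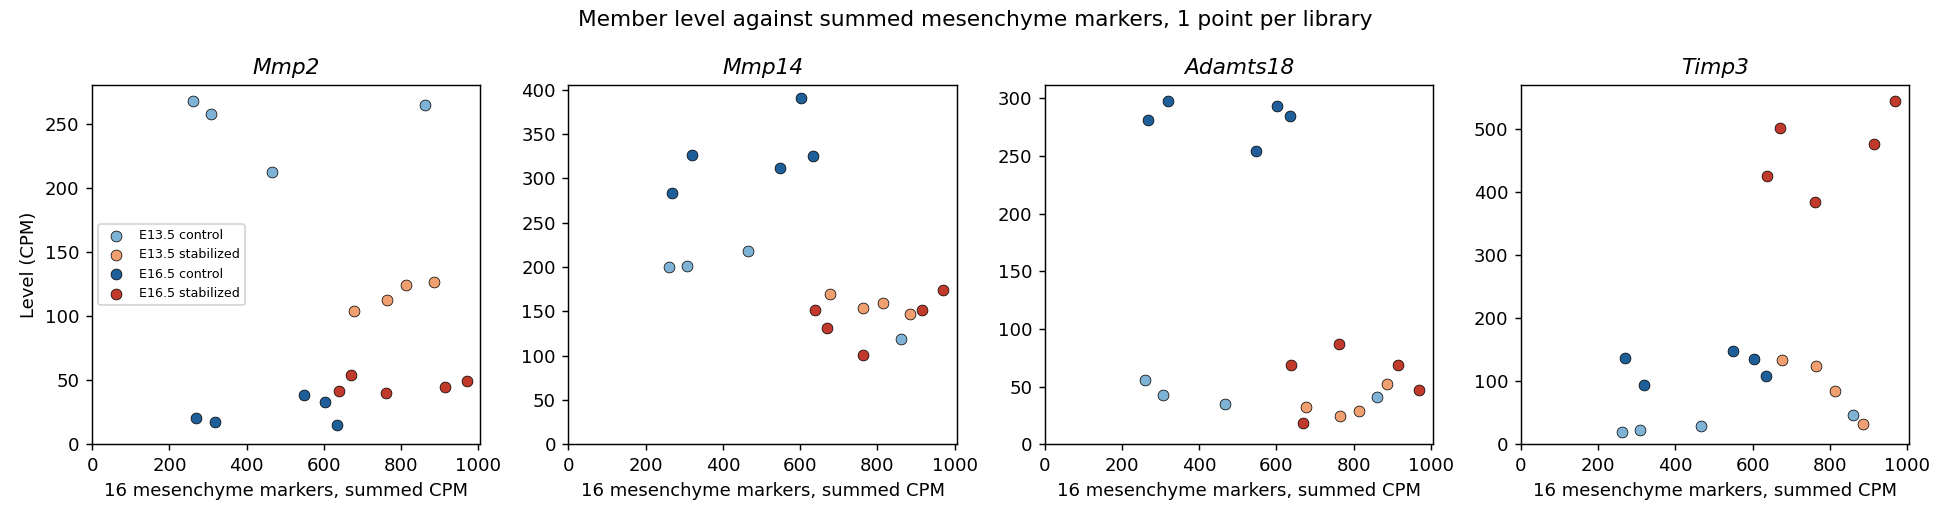
Level of Mmp2, Mmp14, Adamts18 and Timp3 (vertical axes, CPM) against the summed CPM of 16 mesenchyme markers (horizontal axis), with 1 point per library coloured by group. The 4 E13.5 controls span marker sums of 260 to 861 CPM with Mmp2 between 212 and 267 CPM, and the 5 E16.5 controls span 268 to 634 CPM with Adamts18 between 254 and 298 CPM. The E13.5 control with the highest sum, library 3, had the lowest Mmp14 (118 CPM) and the highest Timp3 (46.0 CPM) of its group.

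Whether the effect of stabilized β-catenin differed between the stages was tested as the difference of both effects, E16.5 minus E13.5. It passed for 6 of the 10 members, with 3 differences up and 3 down, where 32.2% of all tested genes passed (15.6% up and 16.6% down). The difference was 1.99 ± 0.298 for Mmp2 (edgeR adjusted p = 3.93e-05) and 2.54 ± 0.278 for Mmp11 (edgeR adjusted p = 1.15e-06), and both genes turned from a fall to a rise. For Timp2 it was 0.86 ± 0.229 (edgeR adjusted p = 0.00707), but 0.28 with the offsets of the deposited normalized table (edgeR adjusted p = 0.542).

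The differences were negative for Mmp14 (-0.98 ± 0.233, edgeR adjusted p = 0.00285) and Adamts18 (-1.94 ± 0.446, edgeR adjusted p = 0.00291), whose falls stood at E16.5. For Adamts1, whose rise stood at E13.5, the difference was -4.73 ± 1.22 (edgeR adjusted p = 0.00760), and it was -5.68 without E13.5 control library 3 and -5.31 without E16.5 stabilized library 1. The effect on Timp3 did not pass as different, at 0.22 ± 0.449 (edgeR adjusted p = 0.762). Mmp15 did not pass with all libraries (0.53 ± 0.354, edgeR adjusted p = 0.275) and passed without E13.5 control library 3 (0.77, edgeR adjusted p = 0.0373). Timp1 and Adam12 did not pass (edgeR adjusted p = 0.987 and 0.792). The members' median difference was 0.16 and that of all tested genes 0.09, and without the 2 libraries named above 4 differences passed up and 3 down.

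In controls, E16.5 was compared with E13.5. The secreted metalloproteinases Mmp2 and Mmp11 fell, by 10.1- and 7.16-fold. Mmp14 rose 1.78-fold, Adamts18 6.45-fold and Timp3 4.28-fold, and Adamts1 went from 0.882 ± 1.05 to 34.5 ± 11.2 CPM. Thus 4 members rose and 2 fell, where 47.5% of all tested genes were called (24.9% up and 22.6% down), with a median log2 fold change of 1.12 for the members and -0.03 for all genes. Without the 2 libraries named above, 4 rose and 3 fell.

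On the log2 scale, from E13.5 to E16.5, Mmp2 fell by 3.33 ± 0.221 (edgeR adjusted p = 5.20e-10) and Mmp11 by 2.84 ± 0.200 (edgeR adjusted p = 1.11e-09). Mmp14 rose by 0.83 ± 0.167 (edgeR adjusted p = 0.000416), Adamts18 by 2.69 ± 0.341 (edgeR adjusted p = 5.50e-06), Timp3 by 2.10 ± 0.338 (edgeR adjusted p = 7.26e-05) and Adamts1 by 5.31 ± 1.02 (edgeR adjusted p = 0.000537), or 6.25 without E13.5 control library 3. In each of these 6 genes no control of one stage overlapped the other. Timp2 changed by -0.21 ± 0.161, which did not pass (edgeR adjusted p = 0.293).

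Timp1 and Adam12 had higher values in each E16.5 control than in any E13.5 control, 1.52 to 2.14 against 0.0324 to 0.769 CPM for Timp1 and 4.14 to 6.66 against 0.615 to 3.90 CPM for Adam12, but neither passed the test. Their log2 fold changes were 1.80 ± 1.02 (edgeR adjusted p = 0.156) and 1.41 ± 0.623 (edgeR adjusted p = 0.0705). For Adam12 the call depended on the method: DESeq2 gave 1.38 (adjusted p = 0.0461), edgeR without E13.5 control library 2 gave 1.91 (adjusted p = 0.0318), and the offsets of the deposited normalized table gave -0.08 (edgeR adjusted p = 0.956). Mmp15 changed by -0.52 ± 0.249 (edgeR adjusted p = 0.0921), and by -0.76 without E13.5 control library 3 (edgeR adjusted p = 0.00427) or -0.65 without E16.5 control library 1 (edgeR adjusted p = 0.0443). In all, 8 members had groups that did not overlap, against 39.7% of tested genes.

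Between the same stages, the sum of immune markers in controls went from 0 to 2.81 CPM up to 19.7 to 29.7 CPM, and 9 of these 10 genes rose. Neural and Schwann cell marker sums went from 149.9 to 205 CPM up to 881 to 1000.5 CPM, with Sox10 at 58.7% and Erbb3 at 38.1% of the E16.5 sum. Mammary epithelium can also express both genes, and of the 10 genes of that list 3 rose and 2 fell. The part of other cells, and of sex, in the stage differences was not tested.

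In stabilized epithelium 2 members rose and 1 fell between the stages. Of all tested genes 28.0% were called here (2852 genes up and 1990 down), against 47.5% in controls. Timp3 rose 4.99-fold, by 2.32 ± 0.340 on the log2 scale (adjusted p = 7.34e-05 by edgeR), with 31.8 to 133 CPM at E13.5 and 384 to 544 CPM at E16.5. Timp2 rose by 0.64 ± 0.164 (edgeR adjusted p = 0.00578), though by 0.04 with the offsets of the deposited normalized table (edgeR adjusted p = 0.929). Mmp2 fell by 1.34 ± 0.209 (edgeR adjusted p = 7.91e-05), from 104 to 126 CPM down to 40.2 to 54.3 CPM. The groups of these 3 members did not overlap, against 25.9% of tested genes.

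Mmp14 stayed near its bud level in stabilized epithelium (158 ± 9.47 and 142 ± 27.3 CPM), and its change of -0.15 ± 0.164 did not pass (edgeR adjusted p = 0.543). Adamts18 changed by 0.75 ± 0.318 (edgeR adjusted p = 0.0883). It passed in DESeq2 (0.77, adjusted p = 0.0307), in edgeR without E13.5 stabilized library 2 (1.03, adjusted p = 0.0333) and without E16.5 stabilized library 1 (0.99, edgeR adjusted p = 0.00178). Mmp11 changed by -0.30 ± 0.192 (edgeR adjusted p = 0.272), and by -0.48 without E16.5 stabilized library 2 (edgeR adjusted p = 0.0451). Adamts1, Mmp15, Timp1 and Adam12 did not pass (edgeR adjusted p = 0.653, 0.986, 0.187 and 0.238). The members' median was 0.61 and that of all tested genes 0.00, and without the 2 libraries named above 3 members rose and 1 fell.

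**Figure D4:**
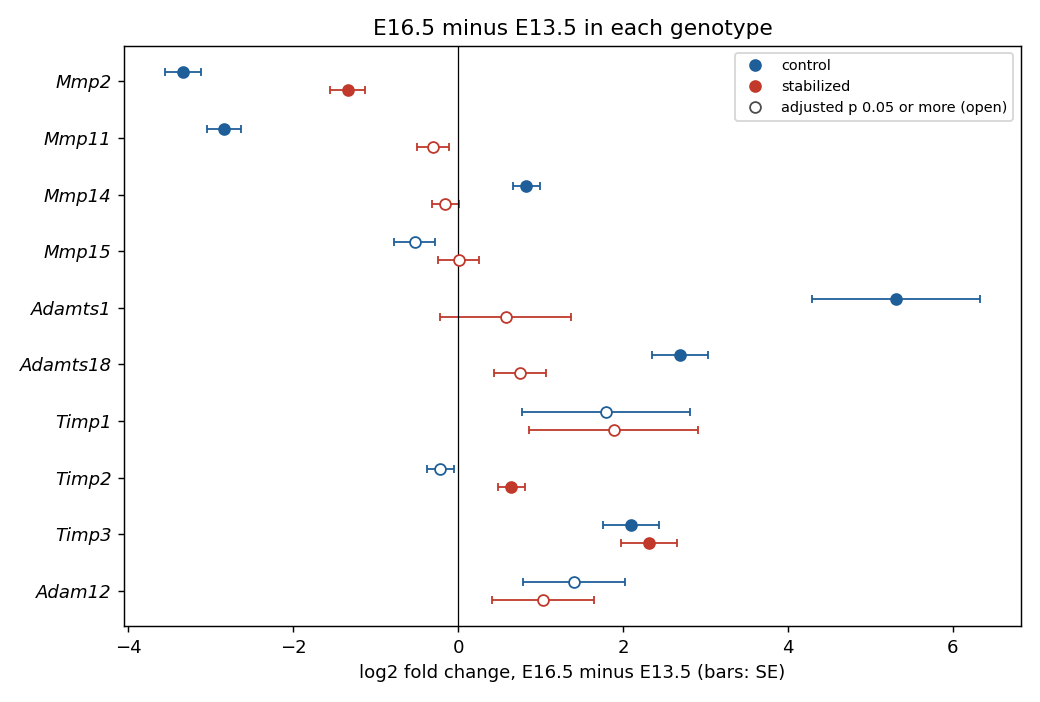
Log2 fold change of E16.5 minus E13.5 (horizontal axis) for each member in controls and in stabilized epithelium, with bars of ± 1 SE; filled points passed an adjusted p of 0.05. Mmp2 and Mmp11 lie far left of 0 in controls (-3.33 and -2.84), and Timp3 lies right of 0 in both genotypes.

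Added up per length, the 4 metalloproteinases outweighed the 3 inhibitors in controls of both stages and in stabilized buds, but not in E16.5 stabilized epithelium. The sum of Mmp2, Mmp11, Mmp14 and Mmp15 was 145 ± 13.4 CPM per kb in E13.5 controls, 81.0 ± 3.06 in E13.5 stabilized, 73.9 ± 9.01 in E16.5 controls and 55.1 ± 9.40 CPM per kb in E16.5 stabilized libraries. The sum of the 3 Timp genes was 23.2 ± 2.52, 24.2 ± 5.53, 33.7 ± 4.62 and 78.4 ± 9.63 CPM per kb in the same order. The ratio of these sums was 6.28 ± 0.647, 3.50 ± 0.957, 2.21 ± 0.296 and 0.699 ± 0.0490, and the ranges of the 4 groups did not overlap, with 0.628 to 0.753 in E16.5 stabilized libraries and 1.82 to 2.55 in E16.5 controls. These are sums of transcript levels and say nothing of protein or activity. Each gene had 1 merged exon length for all libraries, and the gene-and-library factors of the deposited normalized table were not applied. Whether the larger sum stays the larger with other lengths was not tested.

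The makeup of both sums also differed. Timp3 made 15.8 ± 7.85% of the inhibitor sum in E13.5 controls, 45.0 ± 15.9% in E13.5 stabilized, 45.2 ± 2.37% in E16.5 controls and 73.1 ± 5.05% in E16.5 stabilized libraries. Mmp14 made 21.2 ± 4.04% of the metalloproteinase sum in E13.5 controls and 74.5 ± 4.98% in E16.5 controls, against 32.7 ± 2.49% and 43.0 ± 2.34% in stabilized libraries of these stages. The ratio of Mmp2 to its activator Mmp14 per length was 2.57 ± 0.959 in E13.5 controls, 1.31 ± 0.181 in E13.5 stabilized, 0.134 ± 0.0542 in E16.5 controls and 0.589 ± 0.119 in E16.5 stabilized libraries. The ratio of Mmp14 to Timp2 was highest in E16.5 controls, at 3.38 ± 0.522, and lowest in E16.5 stabilized libraries, at 1.26 ± 0.187.

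**Figure D5:**
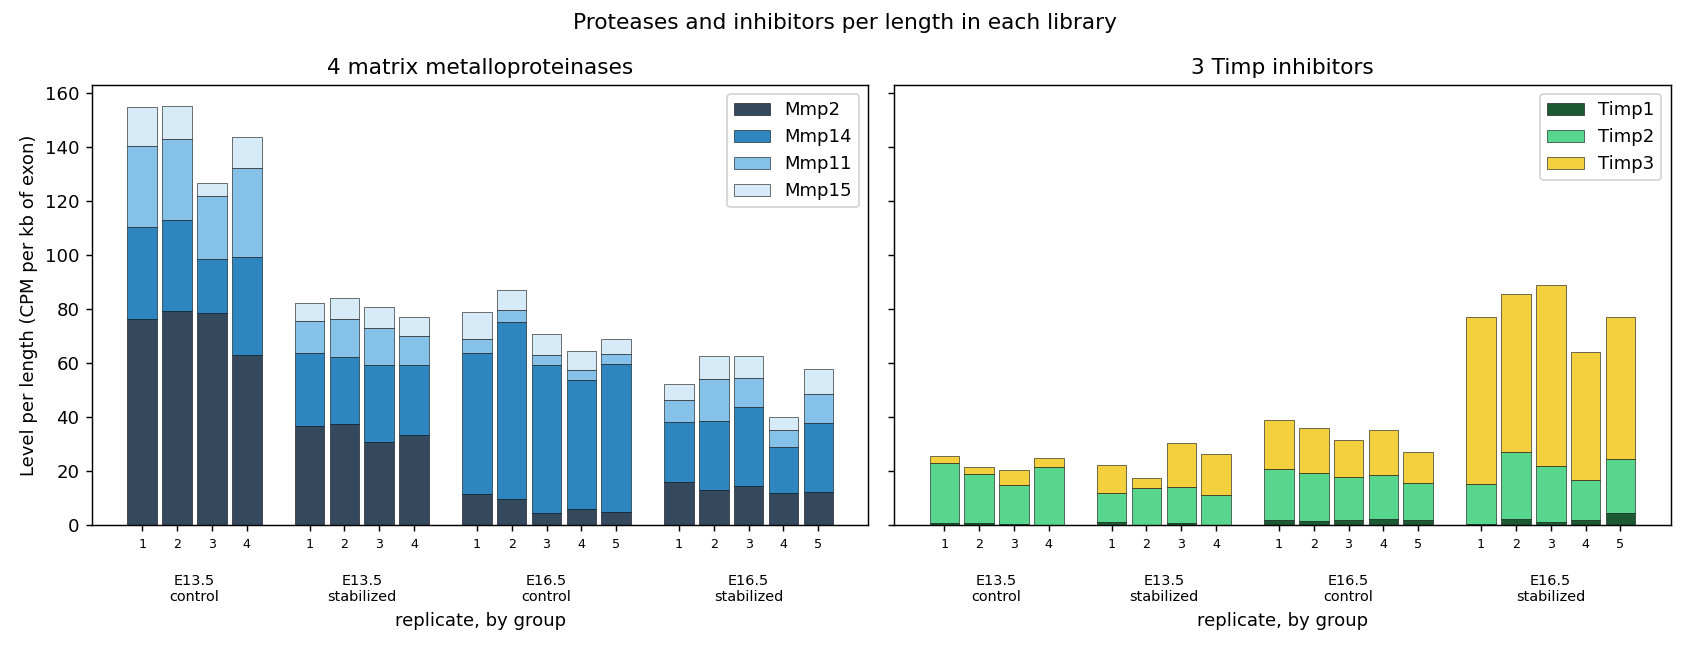
Summed level per length (vertical axis, CPM per kb of exon, from 0) of the 4 metalloproteinases (left) and the 3 Timp inhibitors (right) in each library, stacked by gene and ordered by group and replicate. The metalloproteinase bars are tallest in the 4 E13.5 controls (127 to 155 CPM per kb) and the inhibitor bars in the 5 E16.5 stabilized libraries (64.0 to 88.7 CPM per kb), where Timp3 is the largest segment.

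Libraries of a group also differed among themselves, and some members moved together within 1 library. E13.5 control library 3 had the lowest Mmp11, Mmp14, Mmp15 and Timp2 of its group and the highest Adamts1 and Timp3. E13.5 stabilized library 2 had the lowest Adamts1 (5.04 CPM) and Timp3 (31.8 CPM) of its group and the highest Adamts18 (52.2 CPM). The coefficient of variation of Mmp2 was 10.4% in E13.5 controls, 8.96% in E13.5 stabilized, 41.4% in E16.5 controls and 12.7% in E16.5 stabilized libraries, and that of Adamts18 was 5.98% in E16.5 controls and 45.4% in E16.5 stabilized libraries.

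By the rule of the smallest root mean square difference of centred log2 CPM over the 18 libraries, among 12553 genes, the profile nearest to Mmp2 was that of the Wnt ligand gene Wnt6 (0.39), followed by the semaphorin gene Sema3e (0.40). Wnt6 had 420.3 ± 42.3, 221 ± 17.9, 37.4 ± 6.50 and 89.6 ± 16.7 CPM in E13.5 control, E13.5 stabilized, E16.5 control and E16.5 stabilized libraries. Nearest to Mmp11 were Aff3 (0.31) and Plpp3 (0.36), and nearest to Mmp14 were Aldh18a1 (0.14) and Pygo2 (0.17). Adamts18 was closest to Pde4b (0.43) and Apobec1 (0.46), and Timp3 to Emp2 (0.49) and Mfap3l (0.49). For Timp2 they were Arnt (0.18) and Antxr1 (0.20), and for Mmp15, Prr12 (0.23) and Mov10 (0.24). Nearest to Adamts1 were Bhlhe41 (1.08) and Col14a1 (1.18), to Timp1, Hist1h2bb (0.96) and Hist1h3d (0.97), and to Adam12, Acp5 (0.65) and Siah2 (0.66). These distances are not scaled to a member's own variation. The root mean square of the centred profile itself was 3.06 for Adamts1, 1.56 for Timp1, 1.18 for Adam12, 0.42 for Mmp15 and 0.33 for Timp2. The distances therefore do not rank how closely different members were matched.

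The other genes of these families were counted beside the members, and their counts are to be read against the 14.9% of all tested genes called at E13.5 and the 41.7% at E16.5. Of 9 tested metalloproteinases outside the members, 0 rose and 1 fell at E13.5, and 1 rose and 1 fell at E16.5. The membrane-type protease gene Mmp16 fell at E13.5 from 82.3 ± 15.8 to 17.0 ± 10.1 CPM, by 2.27 ± 0.309 on the log2 scale (adjusted p = 3.00e-05 by edgeR). Of 17 tested ADAMTS genes 8 rose and 1 fell at E13.5, and 4 rose and 7 fell at E16.5. Like Adamts1, the versican-cutting protease gene Adamts9 rose at E13.5 (3.74 ± 1.32 CPM against 42.9 ± 8.97 CPM with stabilized β-catenin, log2 fold change 3.52 ± 0.239, adjusted p = 6.85e-09 by edgeR). Like Adamts18, the genes Adamts15 (133 ± 29.4 to 7.04 ± 2.66 CPM), Adamts7 (76.8 ± 8.91 to 8.57 ± 2.59 CPM) and Adamts9 (176 ± 25.3 to 62.2 ± 12.9 CPM) fell at E16.5. Among the 4 that rose at E16.5 were Adamts6 (5.03 ± 1.52 to 21.5 ± 6.72 CPM) and Adamts17 (99.8 ± 10.8 to 167 ± 25.5 CPM).

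Among 10 other ADAM genes 1 rose and 1 fell at E13.5, and 3 rose and 1 fell at E16.5. Adam10, a sheddase of Notch and cadherins, was the gene of that list that rose at both stages, from 143 ± 25.1 to 408 ± 101 CPM at E13.5 and from 221 ± 28.8 to 365 ± 29.7 CPM at E16.5. Of 11 tested inhibitors outside the Timp members, 1 rose and 0 fell at E13.5, and 4 rose and 3 fell at E16.5. Serpine2, an inhibitor of plasminogen activators, fell at E16.5 from 412 ± 31.5 to 40.0 ± 14.5 CPM, while the cystatin gene Cst6 rose from 0.810 ± 0.285 to 78.0 ± 55.0 CPM and Spint1, an inhibitor of membrane serine proteases, from 72.4 ± 9.77 to 151 ± 21.5 CPM. Timp4, the remaining Timp gene, fell from 3.20 ± 1.77 to 0.0928 ± 0.208 CPM. Among the substrates, 4 of 21 tested rose and 0 fell at E13.5, and 8 rose and 4 fell at E16.5. The counts of this list and of the protease list below are likewise to be read against 14.9% and 41.7% of all tested genes. Vcan, the proteoglycan cut by Adamts1, rose at E13.5 from 279 ± 86.2 to 1127 ± 112 CPM and fell at E16.5 from 2396 ± 159 to 582 ± 114 CPM. Furin, which activates Mmp11 and Mmp14, rose at E13.5 from 84.6 ± 13.2 to 122 ± 11.8 CPM and fell at E16.5 from 289 ± 38.4 to 174 ± 39.2 CPM, and of the 19 tested proteases of its list 9 rose and 2 fell at E13.5, and 12 rose and 3 fell at E16.5.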

How the data were processed

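RNA was sequenced from 18 pooled samples with the Ovation SoLo kit, per the labels' protocols. Per the submitters' processing notes, the tools were Salmon 0.99.0, Trimmomatic 0.39, DESeq2 3.15, FastQC 0.11.8 and MultiQC 1.9, and the build was mm10. The deposited table holds estimated counts per gene, already whole numbers (26768810 to 36922108 per library). A second deposited table holds a normalized signal (counts over factors that vary by gene and library) and was used in 1 alternative. 0 value columns were left unused.

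In edgeR 4.0.16 (R 4.3.3), filterByExpr (minimum count 10) kept 17269 of 24376 genes. The robust quasi-likelihood fit used TMM scaling and a mean for each of the 4 groups (common dispersion 0.250), with Benjamini-Hochberg adjustment over the genes tested. CPM per kb divides CPM by merged exon length. Nearest profiles used log2 CPM (prior count 2). A run of the model on simulated counts used a smaller dispersion and fewer changed genes than found here. It does not show how the model performs at the spread of these data.

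The members and all gene lists were chosen with earlier results of these data known. Named were the members, up to 3 genes per list and genotype comparison with the smallest adjusted p, fixed partners of the members, and 2 nearest profiles per member; Mmp3 is not analysed here. Alternatives were DESeq2 1.42.0, its size factors, offsets from the normalized table, no filter, the compared groups alone, a replicate block, no robust option, each library left out, and 2 libraries left out together. P-values carry counting and pool-to-pool error only.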

Additional observations from a re-analysis of the deposited data

Results flagged for a closer look

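Among 40 groups of member values tested for a sample far from the others, 1 was found, and chance gives about 1 in 20: Adamts1 in E16.5 stabilized library 1 stood at 135 CPM, while the other 4 libraries of its group lay between 34.1 and 42.3 CPM. The same library had the highest epithelial marker sum of all 18 libraries.

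The effect of stabilized β-catenin differed between E13.5 and E16.5 for 6 of the 10 members by the edgeR test of that difference itself. Of all tested genes, 32.2% passed this test, which ran over 4 and 4 libraries at E13.5 and 5 and 5 at E16.5. On the log2 scale the difference was 1.99 for Mmp2 (adjusted p = 3.93e-05), 2.54 for Mmp11 (adjusted p = 1.15e-06) and 0.86 for Timp2 (adjusted p = 0.00707). It was -0.98 for Mmp14 (adjusted p = 0.00285), -4.73 for Adamts1 (adjusted p = 0.00760) and -1.94 for Adamts18 (adjusted p = 0.00291). For Mmp2 and Mmp11, each stabilized library lay below each control at E13.5 and above each control at E16.5.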

How the results depend on the processing

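The counts of called genes moved by over 1.5 times in 1 comparison. At E13.5, 2569 genes were called, but 1712 with the offsets of the deposited normalized table and 1651 with the E13.5 libraries alone, and of the members 5, 3 and 3. Leaving out 1 library at a time gave 1920 to 3035 genes and 4 to 6 members there, and 6434 to 6968 genes and 5 to 5 members at E16.5. For the difference of the effects it gave 4942 to 6094 genes and 6 to 7 members, for the stages 7407 to 8362 genes and 6 to 7 members in controls, and 3960 to 4865 genes and 3 to 4 members in stabilized libraries.

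Signs turned only for values that had not passed with all libraries. At E13.5 Timp1 ran from -0.91 to 0.41 and Adam12 from -0.67 to 0.34 when 1 library was left out. At E16.5 Mmp15 ran from -0.13 to 0.10 and Timp1 from -0.39 to 0.33. The difference of the effects ran from -0.37 to 1.00 for Timp1, from -0.090 to 0.44 for Timp3 and from -0.88 to 0.13 for Adam12, and the stage effect in stabilized libraries from -0.074 to 0.14 for Mmp15 and from -0.019 to 0.83 for Adamts1. Without both E13.5 control library 3 and E16.5 stabilized library 1, added after seeing the data, Timp1 at E13.5 was 0.062, Mmp15 at E16.5 0.034, the difference for Timp3 -0.10 and Adamts1 between stages in stabilized libraries -0.019. Mmp15 at E16.5 was 0.0033 in DESeq2 and 0.0033 with its size factors. The offsets gave 0.055 for Mmp15 at E16.5, 0.070 for the difference of Adam12, -0.078 and -0.0074 for Adam12 between stages in controls and stabilized libraries, and 0.0090 for Mmp11 between stages in stabilized libraries. The cause was not tested.

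Same-numbered libraries did not deviate together (correlations of -0.091 to 0.172 over 4 pairs at E13.5 and -0.0995 to 0.131 over 5 at E16.5), so the numbers were not taken as pairs. With a replicate block 2219 genes were called at E13.5 and 6779 at E16.5, the members called were as many in all 5 comparisons, and 2 uncalled values turned, Timp1 at E16.5 to -0.23 and Mmp15 between stages in stabilized libraries to -0.088. For the stage comparisons the block joined libraries of the same number across stages, and the E16.5 libraries numbered 5 were left out. Without E16.5 stabilized library 5 alone, and with no block, that Mmp15 value was -0.074. Members with few counts (Timp1 and Adam12, and Adamts1 in E13.5 controls) have wide errors, so differences there may not be detectable.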

Other observations

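Of 16 metalloproteinase genes outside the members in the table, 7 did not pass the filter on low counts: Mmp7, Mmp8, Mmp10, Mmp13, Mmp21, Mmp25 and Mmp27 reached at most 33 counts in any library. The enamel protease gene Mmp20 had 0 counts in every library of the other 3 groups and 1.83 ± 1.33 CPM in E16.5 stabilized libraries. Mmp17, a membrane-anchored protease gene, had 11.2 ± 2.81 CPM in E16.5 controls and 2.54 ± 1.00 CPM in E16.5 stabilized libraries (edgeR adjusted p = 0.000596).

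The deposited normalized table treated a few members unevenly. Relative to the library's median and the gene's mean, the factor dividing Adam12 counts averaged 0.669 in E13.5 controls and 1.43 in E16.5 controls, and that dividing Mmp11 counts 0.770 in E13.5 controls and 1.37 in E13.5 stabilized libraries. For Mmp2 and Mmp14 the group means of this factor lay between 0.976 and 1.03.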
